A study of Mus musculus with 15 samples.

Results

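The mevalonate pathway builds isoprenoid units from acetyl-CoA, and 8 genes that encode its enzymes before squalene were described here. They were found by gene symbol in the count tables: Acat2, Hmgcs1, Mvk, Pmvk, Mvd, Idi1, Fdps and Ggps1. All 8 were among the 54390 listed genes, and all 8 were among the 14237 genes with enough reads to be tested. In the pathway, acetyl-CoA is condensed to HMG-CoA, which is reduced to mevalonate, phosphorylated and decarboxylated to isopentenyl diphosphate. Isopentenyl units are then joined into farnesyl diphosphate, which feeds sterols through squalene, and geranylgeranyl diphosphate, which is attached to small GTPases. Transcription of the pathway is classically driven by SREBP2, a membrane-bound factor that is held in the endoplasmic reticulum when sterols are plentiful, so macrophages that are loaded with cholesterol are known to lower these transcripts.

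RNA was sequenced from BV2 cells, a mouse microglial line used as a macrophage model, in 15 libraries. There were 4 libraries of WT BV2 cells in media alone (WT non-foamy) and 4 of WT cells given 20 µg/ml soluble cholesterol overnight (WT foamy). There were 3 libraries of Trem2 knockout (Trem2-/-) cells in media alone (Trem2-/- non-foamy) and 4 of Trem2-/- cells given the same cholesterol (Trem2-/- foamy). Trem2 is a lipid-sensing receptor of myeloid cells, and the comparisons ask how its loss alters the response to cholesterol. Per the methods, the knockout was made with a Trem2 guide RNA in Cas9-BV2 cells, themselves grown from a single clone, and Trem2-/- clones were then isolated by dilution. How many clones were sequenced, and whether the WT cells carried Cas9, is not stated, so the genotype and the history of a clone cannot be told apart. Soluble cholesterol is cholesterol carried by methyl-beta-cyclodextrin and the controls received media alone, so cholesterol and its carrier cannot be told apart either. The labels do not say that replicates were separate cultures, so p-values measure the spread between these libraries, which may be technical.

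Each library held 23538963 to 41683825 counted reads, and the lowest count of any of the 8 genes in any library was 235 (Mvk). Trem2 itself was at 327 to 415 CPM (counts scaled to library size) in the 8 WT libraries and at 214 to 232 CPM in the 7 Trem2-/- libraries. By edgeR's quasi-likelihood test, Trem2-/- cells held less of it in media alone (-0.67 on the log2 scale, s.e. 0.08, adjusted p = 2.85e-07) and with cholesterol (-0.73, s.e. 0.07, adjusted p = 7.09e-08). The transcript was thus still counted in every Trem2-/- library, and a count over the whole gene does not show whether a small edit disrupts the protein. The paper reports that flow cytometry of cholesterol-treated BV2 cells showed the knockout at the protein level. Of 9 microglia and macrophage markers, the summed level in WT libraries was 2922 to 3603 CPM without and 3142 to 3596 CPM with cholesterol, and in Trem2-/- libraries 4136 to 4398 CPM without and 4238 to 4417 CPM with it. Among them the microglia markers Tmem119 (2 to 26 counts a library), P2ry12 (14 to 77) and Cx3cr1 (4 to 88) were near the floor. The summed level of 12 markers of neurons, astrocytes, oligodendrocytes and fibroblasts was 0.817 to 2.57 CPM, and 8 of them (Syt1, Snap25, Aqp4, Aldh1l1, Mog, Col1a1, Col1a2 and Col3a1) were at 0 counts in all libraries. Without cholesterol 5 of the 9 macrophage markers were called higher and 2 lower in Trem2-/- than in WT cells. Of all tested genes 21% were called higher and 22.6% lower, so the 2 lower calls are near the share over all genes. These 2 were Cx3cr1 (log2 fold change -2.35, edgeR adjusted p = 7.61e-05) and P2ry12 (-1.51, edgeR adjusted p = 0.000302). The 5 higher ran from 0.38 (Cd68) to 0.61 (Csf1r). The part of these markers in the genotype differences below was not tested. In bulk RNA, fewer cells that express a gene and less RNA per cell cannot be told apart.

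The promoters are shown because 6 of the genes fell together with cholesterol in WT cells, as described further on. RefSeq windows of 250 bases before and 50 after the start (GRCm38.p6) were matched for 7 of the 8 genes, with 8 windows, and none for Fdps. The windows were searched on both strands for TCACNCCAC, a spelling of the sterol regulatory element bound by SREBP2, for CCAAT, the box bound by NF-Y, and for GGGCGG, the box bound by Sp1. The 250 bases before the start are printed 5′ to 3′ for 4 genes, with matches to CCAAT (or ATTGG on the other strand) and TCACNCCAC in capitals: Hmgcs1 with the sterol element, Idi1 with the largest fold changes, Mvk with the most CCAAT boxes and Ggps1 for contrast.
Hmgcs1: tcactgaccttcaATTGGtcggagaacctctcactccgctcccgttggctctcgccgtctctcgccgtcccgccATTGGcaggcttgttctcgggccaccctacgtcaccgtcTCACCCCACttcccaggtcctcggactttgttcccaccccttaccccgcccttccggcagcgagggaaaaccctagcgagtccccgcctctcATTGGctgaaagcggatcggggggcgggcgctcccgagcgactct
Idi1: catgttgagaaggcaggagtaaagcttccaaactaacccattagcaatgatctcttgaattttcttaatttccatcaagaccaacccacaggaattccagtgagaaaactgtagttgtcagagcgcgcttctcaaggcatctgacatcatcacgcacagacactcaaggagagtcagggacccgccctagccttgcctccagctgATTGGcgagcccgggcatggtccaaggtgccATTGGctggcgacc
Mvk: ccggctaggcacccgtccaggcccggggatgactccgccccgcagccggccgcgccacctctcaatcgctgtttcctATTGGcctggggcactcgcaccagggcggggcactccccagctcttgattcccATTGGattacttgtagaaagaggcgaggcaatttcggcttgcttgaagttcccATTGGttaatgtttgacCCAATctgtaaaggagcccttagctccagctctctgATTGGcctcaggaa
Ggps1: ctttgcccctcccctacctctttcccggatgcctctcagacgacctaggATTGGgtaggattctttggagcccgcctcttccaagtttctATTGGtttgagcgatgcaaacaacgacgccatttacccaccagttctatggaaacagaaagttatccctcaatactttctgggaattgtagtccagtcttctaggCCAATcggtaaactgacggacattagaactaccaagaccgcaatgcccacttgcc
These stretches lie at chr13:119690101-119690350 (plus strand, Hmgcs1), chr13:8885356-8885605 (plus, Idi1), chr5:114444019-114444268 (plus, Mvk) and chr13:14063489-14063738 (minus, Ggps1). TCACNCCAC was found in 1 member, Hmgcs1, starting 137 bases before the start, against 1.24% of all 32851 promoter windows. CCAAT was found in 6 members (all matched but Acat2), against 37.4% of all windows, and GGGCGG in 5 members, against 35.7%. The Mvk window held 5 CCAAT boxes, 1 on the plus strand 50 bases before the start and 4 on the minus strand 173, 120, 67 and 14 bases before it, and 0.271% of all windows held 5 or more. Mvk starts 209 bases from Mmab on the opposite strand, and the windows of both genes share 259 bases. The Ggps1 window held 3 CCAAT boxes and neither of the other motifs. A match is only a description of the letters in a window and says nothing of binding in these cells.

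In GRCm38, Acat2 lies at chr17:12942890-12960747 (minus strand), Hmgcs1 at chr13:119690379-119708260 (plus), Mvk at chr5:114444269-114460591 (plus) and Pmvk at chr3:89454541-89469013 (plus). Mvd lies at chr8:122433601-122443422 (minus), Idi1 at chr13:8885501-8892451 (plus), Fdps at chr3:89093588-89101959 (minus) and Ggps1 at chr13:14050659-14063488 (minus). Several of these genes have near copies or overlapping genes, and how reads with several matches and reads of either strand were counted is not stated. Fdps is the member this touches most. Its transcripts share 50-base stretches with Gm3571 (321 to 1403 counts a library) and Gm5873 (38 to 302), and 26.7% of its exonic length is overlapped by Gm43738, which had 0 counts in every library. Fdps held between 48.4% and 55.7% of the counts of Fdps, Gm3571 and Gm5873 together in every library, so its absolute level is uncertain. Acat2 shares 39.1% of its 50-base stretches with other genes, chiefly Acat3 (10 to 50 counts), and Idi1 shares 25.3%, chiefly with Gm13502 (0 to 12 counts). The annotated start of Idi1 lies upstream of its RefSeq start, so part of the stretch printed for it is within the annotated gene, where 9.22% of the exonic length is overlapped by Gm48574 on the opposite strand (0 to 4 counts). For Hmgcs1, 12.1% of the exonic length is overlapped by the antisense gene Gm48342 (0 to 6 counts), and for Ggps1 5.44% is overlapped by Arid4b on the opposite strand. Pmvk and Mvd share no such stretch and overlap no gene.

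Without cholesterol, the transcripts of the pathway stood at uneven levels in WT cells. Per kilobase of exonic length (mean RPKM, n = 4), the order in WT non-foamy cells was Pmvk at 43.9, Mvd at 28.1, Hmgcs1 at 20.7, Acat2 at 16.7, Idi1 at 15.01, Fdps at 9.87, Ggps1 at 8.85 and Mvk at 5.39. Pmvk, the second mevalonate kinase, thus headed the list and Mvk, the first, closed it. The length takes in the exons of all annotated transcripts of a gene, so both orders depend on that choice. By CPM, without regard to length, Hmgcs1 (mean 94.9) was above Pmvk (75.1) in WT non-foamy cells, and Mvk (14.4) was again lowest. In Trem2-/- non-foamy cells (n = 3) the order was Pmvk at 32.2, Mvd at 14.4, Hmgcs1 at 10.6, Ggps1 at 9.05, Acat2 at 6.05, Idi1 at 3.86, Mvk at 3.44 and Fdps at 3.26. Ggps1 moved up past Acat2, Idi1 and Fdps in the second order, with 8.85 and 9.05 RPKM as its levels. The place of Fdps in both orders is uncertain. In these libraries it held only 48.4% to 55.7% of the counts of Fdps, Gm3571 and Gm5873 together. The sum of all 8 genes in WT cells was 415 ± 7.82 CPM without and 286 ± 8.49 CPM with cholesterol (SD, n = 4 each). In Trem2-/- cells it was 225 ± 5.80 CPM without (SD, n = 3) and 274 ± 7.81 CPM with cholesterol (n = 4). The sums of the WT foamy (277 to 297 CPM) and Trem2-/- foamy libraries (265 to 282 CPM) overlapped, and no other pair of groups did.

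**Figure D1:**
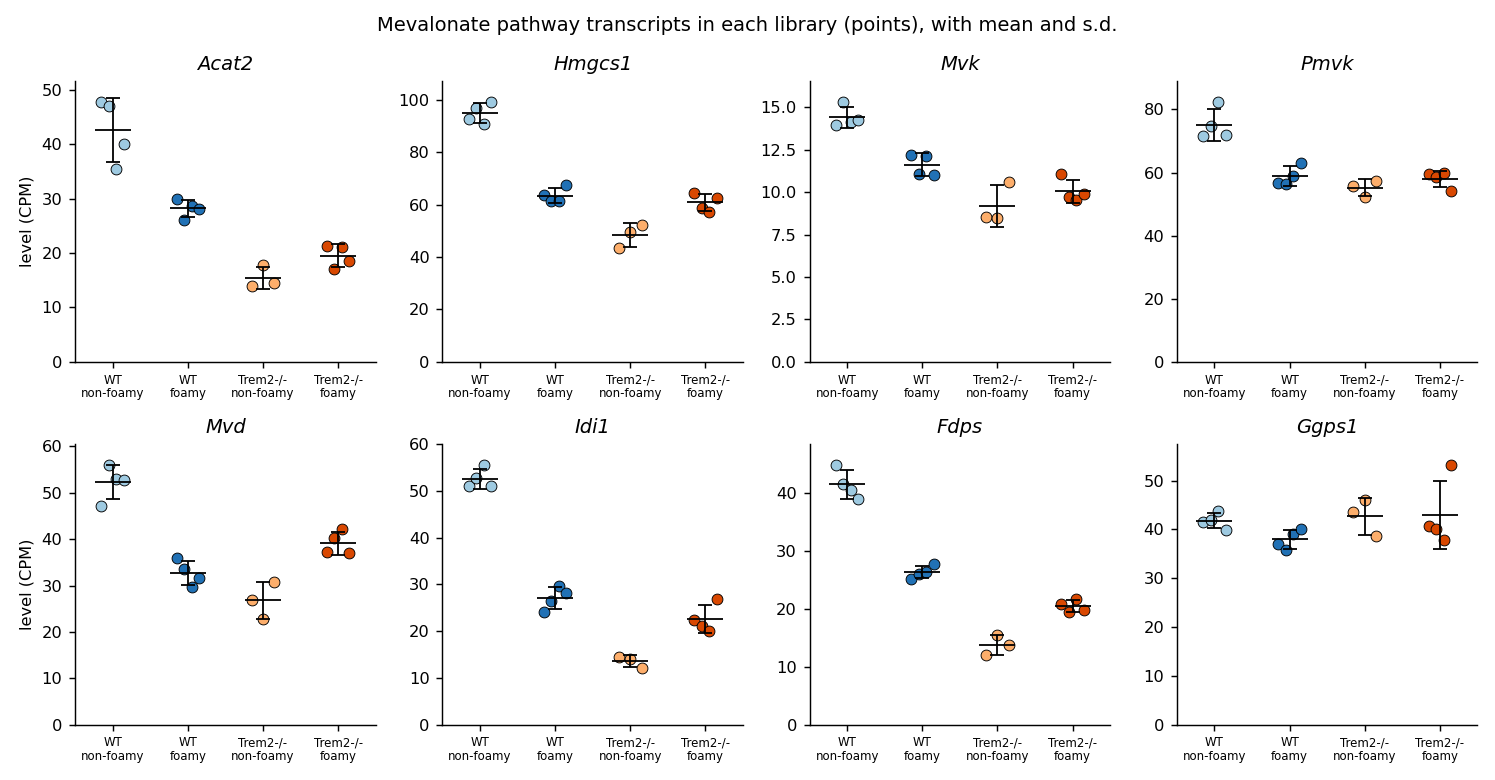
Level in CPM (vertical axes, each starting at 0) of the 8 genes in the 15 libraries of the 4 groups, with points for libraries, long bars for means and whiskers for SD. WT non-foamy libraries sit highest for all genes but Ggps1, whose groups overlap, and Trem2-/- non-foamy libraries sit lowest for Idi1 and Fdps (means 13.5 and 13.7 CPM).

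Cholesterol lowered most of the pathway in WT cells. Of the 8 genes, 6 fell (Acat2, Hmgcs1, Pmvk, Mvd, Idi1 and Fdps), and none was called higher, whereas 1.14% of all tested genes were called lower and 1.66% higher. For 7 genes, Mvk included, every WT foamy library was below every WT non-foamy library, as was so for 5.16% of all genes, and no gene of the 8 had every foamy library above (4.56% of all genes). The median log2 fold change was -0.59 over the 8 genes and 0.01 over all tested genes. Ggps1, which makes geranylgeranyl diphosphate, was the member whose groups overlapped.

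The steps up to HMG-CoA were lower in WT foamy cells. Acat2, the cytosolic thiolase that joins acetyl-CoA units into acetoacetyl-CoA, was at 47.8, 46.9, 35.4 and 40.0 CPM in the WT non-foamy and at 29.9, 26.1, 28.6 and 28.2 CPM in the WT foamy libraries. It fell by 0.60 on the log2 scale (s.e. 0.10, edgeR adjusted p = 0.00169). Hmgcs1, the cytosolic HMG-CoA synthase, was at 92.8, 96.8, 90.8 and 99.3 CPM without and at 63.6, 61.4, 61.2 and 67.5 CPM with cholesterol. All 4 cholesterol libraries were below all 4 controls for both genes, and Hmgcs1 fell by 0.58 (s.e. 0.06, edgeR adjusted p = 1.78e-05).

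The kinases had smaller log2 fold changes than Acat2, Hmgcs1 and Mvd. Mvk, which phosphorylates mevalonate, was at 14.0, 15.3, 14.1 and 14.3 CPM in WT non-foamy and at 12.2, 11.1, 12.2 and 11.0 CPM in WT foamy libraries. These groups did not overlap, but the log2 fold change of -0.31 (s.e. 0.09) did not pass the test (edgeR adjusted p = 0.0691), whereas DESeq2 gave an adjusted p of 0.0238 for Mvk. Pmvk, which adds the next phosphate, was at 71.6, 74.6, 82.4 and 71.9 CPM without and at 56.6, 56.5, 59.0 and 63.2 CPM with cholesterol, and fell by 0.35 (s.e. 0.06, edgeR adjusted p = 0.0026). Mvd, the decarboxylase that yields isopentenyl diphosphate, was at 47.2, 56.1, 53.1 and 52.9 CPM without and at 36.0, 33.5, 29.7 and 31.5 CPM with cholesterol. It fell by 0.68 (s.e. 0.08, edgeR adjusted p = 5.59e-05), with no overlap.

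Of the 8 genes, Idi1 had the largest log2 fold change in WT cells. Idi1, the isomerase that makes dimethylallyl diphosphate from isopentenyl diphosphate, was at 51.1, 52.7, 55.6 and 51.1 CPM in WT non-foamy and at 24.1, 26.4, 29.7 and 28.1 CPM in WT foamy libraries. It fell by 0.96 (s.e. 0.09, edgeR adjusted p = 9.95e-07), to 51.4% of its control mean. Fdps, which builds farnesyl diphosphate at the branch point, was at 44.9, 41.6, 40.6 and 39.0 CPM without and at 25.2, 26.1, 26.3 and 27.8 CPM with cholesterol, and fell by 0.66 (s.e. 0.08, edgeR adjusted p = 4.39e-05). Summed with the counts of Gm3571 and Gm5873, the change of Fdps was -0.63 (s.e. 0.07). Ggps1 was at 41.5, 41.9, 43.7 and 39.9 CPM without and at 37.0, 35.8, 39.0 and 40.1 CPM with cholesterol. These libraries overlapped, and the log2 fold change of Ggps1 was -0.14 (95% interval -0.32 to 0.04, edgeR adjusted p = 0.47).

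In Trem2-/- cells, no gene of the 8 was called lower with cholesterol, and 3 rose: Mvd, Idi1 and Fdps. In the same comparison 0.105% of all tested genes were called higher and 0.0351% lower. For 4 genes, these 3 and Hmgcs1, every Trem2-/- foamy library was above every Trem2-/- non-foamy library, against 5.38% of all genes, and none was below in every library (3.88%). The median log2 fold change was 0.34 over the 8 genes and 0.00 over all tested genes.

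The genes that rose were the 3 steps from mevalonate diphosphate to farnesyl diphosphate. Idi1 was at 14.6, 13.9 and 12.1 CPM in Trem2-/- non-foamy and at 22.4, 21.0, 20.1 and 27.0 CPM in Trem2-/- foamy libraries (log2 fold change 0.74, s.e. 0.10, edgeR adjusted p = 0.000648). Fdps was at 11.997, 15.4 and 13.7 CPM without and at 20.8, 19.5, 21.7 and 19.8 CPM with cholesterol (0.58, s.e. 0.09, edgeR adjusted p = 0.00285; summed with Gm3571 and Gm5873, 0.58, s.e. 0.07). Mvd was at 26.8, 22.8 and 30.7 CPM without and at 37.2, 40.3, 42.2 and 37.0 CPM with cholesterol (0.55, s.e. 0.09, edgeR adjusted p = 0.00819). All 4 foamy libraries were above all 3 non-foamy libraries for each of them. Without Trem2-/- non-foamy replicate 1 only Idi1 of the 8 genes was called, with adjusted p = 0.0818 for Mvd and 0.0789 for Fdps. Mvd also missed the threshold without Trem2-/- non-foamy replicate 2 (adjusted p = 0.162), without Trem2-/- foamy replicate 3 (0.0619) and with scaling to total counts alone (0.0908).

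The other members did not pass the test in Trem2-/- cells. Hmgcs1 was at 43.5, 49.6 and 52.3 CPM without and at 64.5, 58.8, 57.3 and 62.7 CPM with cholesterol, with no overlap (0.33, s.e. 0.07, edgeR adjusted p = 0.0765; DESeq2 adjusted p = 0.00317). Acat2 was at 14.0, 17.7 and 14.5 CPM without and at 21.3, 17.0, 21.1 and 18.5 CPM with cholesterol, which overlapped (0.34, s.e. 0.11, edgeR adjusted p = 0.596). For both kinases the Trem2-/- libraries with and without cholesterol overlapped. Mvk was at 8.52, 8.48 and 10.6 CPM without and at 11.1, 9.73, 9.56 and 9.88 CPM with cholesterol (0.13, 95% interval -0.09 to 0.34, edgeR adjusted p = 0.885). Pmvk was at 55.9, 52.4 and 57.4 CPM without and at 59.5, 58.6, 59.7 and 54.2 CPM with cholesterol (0.07, 95% interval -0.07 to 0.21, edgeR adjusted p = 0.91). Ggps1 was at 43.5, 46.1 and 38.6 CPM without and at 40.7, 40.2, 37.7 and 53.3 CPM with cholesterol (0.01, 95% interval -0.19 to 0.20, edgeR adjusted p = 0.994). Trem2-/- foamy replicate 4 was the highest of all 15 libraries for Ggps1, and without it the log2 fold change of Ggps1 in Trem2-/- cells was -0.11.

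**Figure D2:**
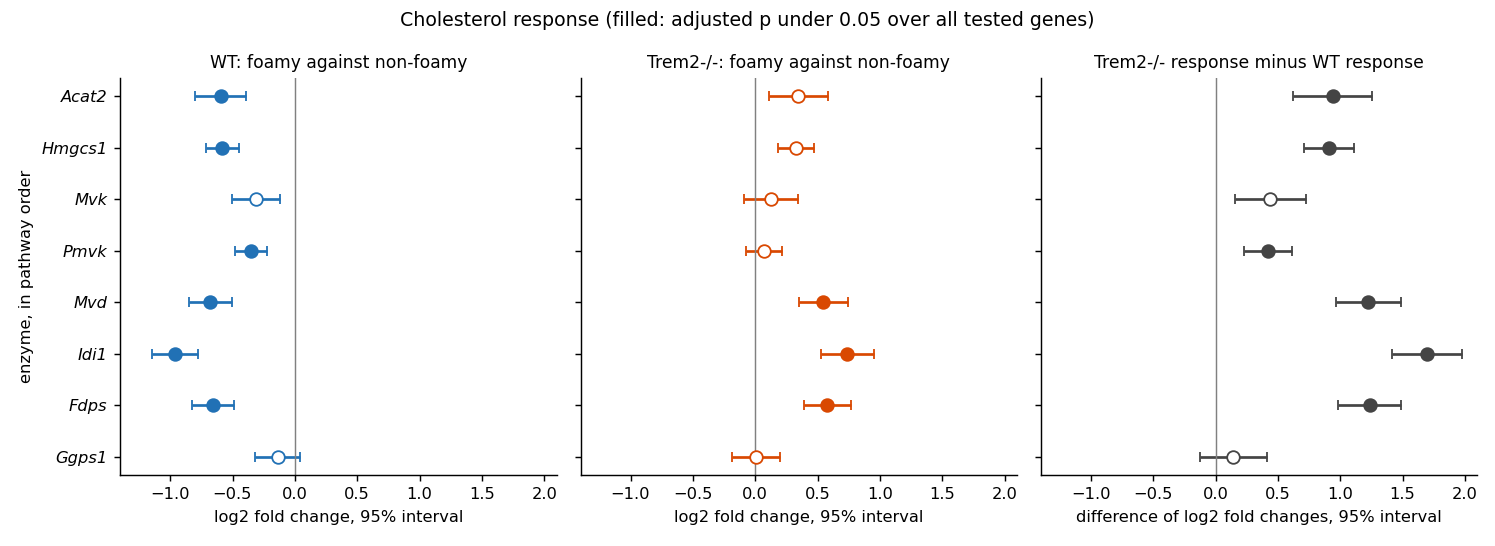
Log2 fold change with 95% interval (horizontal axes) for each enzyme in pathway order, for cholesterol in WT cells, for cholesterol in Trem2-/- cells and for the difference between both responses, with filled points for adjusted p under 0.05. The points lie below 0 in WT cells and at or above 0 in Trem2-/- cells, and the differences run from 0.14 (Ggps1) to 1.70 (Idi1).

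The response to cholesterol differed between the genotypes for 6 of the 8 genes, all with the higher response in Trem2-/- cells, and of all tested genes 1.99% had a higher and 1.64% a lower response in Trem2-/- than in WT cells. The difference of the log2 fold changes (Trem2-/- minus WT) was largest for Idi1 at 1.70 (s.e. 0.14, edgeR adjusted p = 4.8e-08), followed by Fdps at 1.24 (s.e. 0.12, adjusted p = 1.75e-06) and Mvd at 1.22 (s.e. 0.13, adjusted p = 4.03e-06). It was 0.94 for Acat2 (s.e. 0.15, edgeR adjusted p = 0.000975), 0.91 for Hmgcs1 (s.e. 0.10, adjusted p = 4.32e-06) and 0.42 for Pmvk (s.e. 0.09, adjusted p = 0.0129). The call for Pmvk was lost without Trem2-/- non-foamy replicate 2 (edgeR adjusted p = 0.0548). Mvk had a difference of 0.44 (s.e. 0.14), which missed the threshold in edgeR (adjusted p = 0.0795), passed it without Trem2-/- non-foamy replicate 3 (0.0466) and passed it in DESeq2 (0.0345). For Ggps1 the difference was 0.14 (95% interval -0.12 to 0.41) and did not pass the test. The comparisons share groups of libraries, so their values are not independent. The median difference was 0.93 over the 8 genes and 0.00 over all tested genes.

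Without cholesterol, the pathway stood lower in Trem2-/- than in WT cells. All members but Ggps1 were lower, 7 of 8, in a comparison in which 22.6% of all tested genes were called lower and 21% higher. Every Trem2-/- library was below every WT library for the same 7, against 23.5% of all genes. The median log2 fold change was -0.97 over the 8 genes and 0.02 over all tested genes. The log2 fold changes were -1.96 for Idi1 (s.e. 0.10, edgeR adjusted p = 2.09e-12), -1.60 for Fdps (s.e. 0.09, adjusted p = 6.37e-12) and -1.47 for Acat2 (s.e. 0.11, adjusted p = 8.33e-10). Hmgcs1 at -0.97 and Mvd at -0.96 came next, and the kinases again had the smallest values of the 7, with Mvk at -0.65 and Pmvk at -0.44. The adjusted p of these 4 ran from 3.29e-10 to 2.04e-05 (edgeR). As percentages of the WT non-foamy mean, Trem2-/- non-foamy cells held 25.7% of Idi1, 33.1% of Fdps and 36.2% of Acat2, but 102.3% of Ggps1 (log2 fold change 0.03, 95% interval -0.16 to 0.23, adjusted p = 0.801).

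Scaling bears on these genotype comparisons. Total counts alone, in place of TMM, shifted the median of all genes by -0.14 without and by -0.13 with cholesterol, and turned the value of Ggps1 without cholesterol to -0.11. Among called genes, the share that was lower in Trem2-/- cells then went from 51.9% to 70.6% without cholesterol and from 52.6% to 76.7% with it. The same scaling moved the share of lower calls for cholesterol in WT cells from 40.6% to 58.2%, and that of lower responses in Trem2-/- cells from 45.2% to 29.7%. The numbers of members called without cholesterol, in the WT response and in the difference of responses were the same 7, 6 and 6 under both scalings.

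**Figure D3:**
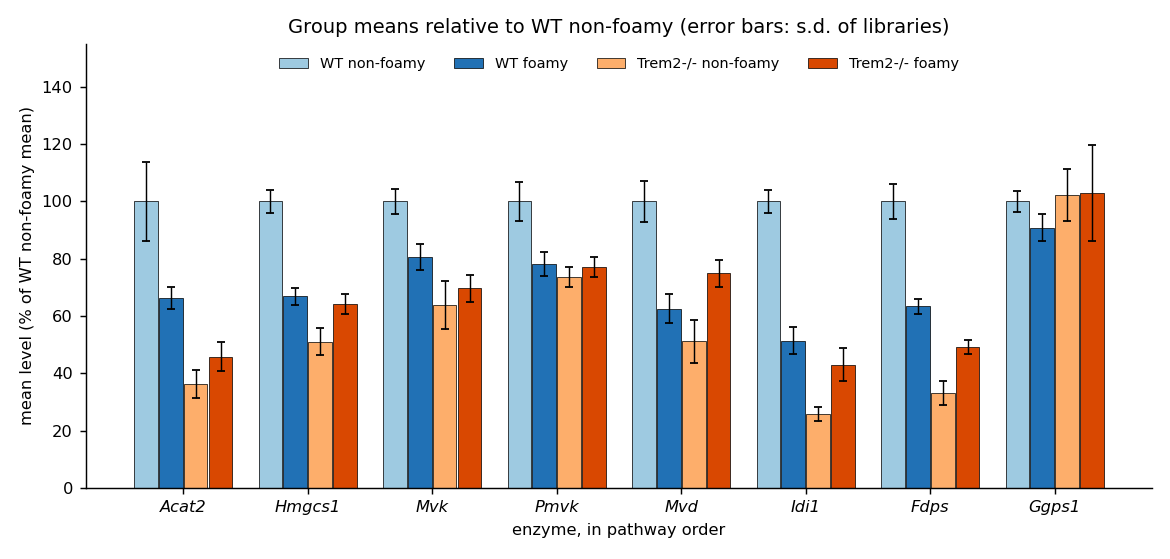
Mean level of each enzyme as a percentage of its WT non-foamy mean (vertical axis, from 0), in pathway order, for the 4 groups, with bars for means and whiskers for the SD of libraries. Trem2-/- non-foamy cells range from 25.7% (Idi1) to 73.5% (Pmvk) for all enzymes but Ggps1, which stays between 90.9% and 103% in every group.

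With cholesterol, fewer of the genes differed between the genotypes. Of the 8 genes, 3 were lower in Trem2-/- foamy than in WT foamy cells and 1 was higher, against 15.9% and 14.3% of all tested genes. The libraries did not overlap for 2 genes that were lower (15% of all genes) and 1 that was higher (13.8%). The higher call and the higher gene without overlap are thus near the shares over all genes. Under total counts alone 4 were lower and none higher, beside 3666 lower and 1115 higher of all 14237 tested genes. The median log2 fold change was -0.13 over the 8 genes and 0.00 over all tested genes. Acat2 was lower (-0.53, s.e. 0.10, edgeR adjusted p = 0.000387), as were Fdps (-0.36, s.e. 0.08, adjusted p = 0.00145) and Idi1 (-0.26, s.e. 0.09, adjusted p = 0.0329), and the libraries of Idi1 overlapped. Mvd was higher in Trem2-/- foamy cells (0.26, s.e. 0.08, edgeR adjusted p = 0.023), with libraries that did not overlap. The calls of Mvd and Idi1 were fragile. Both were lost, leaving 2 genes called, without WT foamy replicate 3, without WT foamy replicate 4, without Trem2-/- foamy replicate 2 and without Trem2-/- foamy replicate 3. The call of Idi1 was also lost without WT foamy replicate 2 (adjusted p = 0.0519), without Trem2-/- foamy replicate 1 (0.0645) and when only the libraries compared were fitted (0.0595), and that of Mvd with total counts alone (0.13, adjusted p = 0.367). Hmgcs1 (-0.06, 95% interval -0.19 to 0.07), Pmvk (-0.02, -0.15 to 0.11), Mvk (-0.21, -0.40 to -0.01) and Ggps1 (0.18, 0.00 to 0.36) did not pass the test, with edgeR adjusted p from 0.101 to 0.854.

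The order of the 4 groups was the same for 6 of the genes. For Acat2, Hmgcs1, Mvk, Pmvk, Idi1 and Fdps the mean was highest in WT non-foamy, then in WT foamy, then in Trem2-/- foamy and lowest in Trem2-/- non-foamy cells. Every step of that order passed the test for Idi1 and Fdps, 2 of the 3 steps for Acat2 (not the last), 1 step for Hmgcs1 and Pmvk (the first) and no step for Mvk. For Mvd, Trem2-/- foamy cells came before WT foamy cells, and every step passed (edgeR adjusted p = 0.000345, 0.023 and 0.0213). Some steps rest on calls that were lost in fits described above. These are the middle step for Idi1 and Mvd and the last step for Fdps. The last step for Mvd also rests on a call that was lost in fits given below. Trem2-/- cells without cholesterol were below even WT cells with cholesterol for 6 genes (17.6% of all genes were called lower and 15.1% higher): Acat2 (-0.87), Hmgcs1 (-0.39), Mvk (-0.34), Mvd (-0.29), Idi1 (-1.0) and Fdps (-0.94). For 5 of them, all but Mvd, every Trem2-/- library was below every WT library (20.2% of all genes), and for none was every one above (18.7%). Of these, Mvd lost its call without WT foamy replicate 1 (adjusted p = 0.0634), and Mvd and Mvk lost theirs without Trem2-/- non-foamy replicate 1 (0.0626 and 0.0871) or replicate 2 (0.176 and 0.082), while total counts alone added Pmvk (-0.23, adjusted p = 0.0125, edgeR). Trem2-/- foamy cells were still below WT non-foamy cells for 7 genes, against 21.7% of all genes called lower and 20.6% higher, with log2 fold changes from -1.22 (Idi1) to -0.37 (Pmvk), and the libraries of these 7 did not overlap (18.6% of all genes in that direction, 17.2% in the other).

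The balance at the branch point was read as count ratios within a library, which do not depend on library scaling. Farnesyl diphosphate made by Fdps is used by Ggps1 for geranylgeranyl diphosphate and by Fdft1, squalene synthase, for sterols. The log2 ratio of Fdps to Ggps1 counts was 0.11, -0.01, -0.11 and -0.03 in WT non-foamy and -0.55, -0.46, -0.57 and -0.53 in WT foamy libraries, a difference of -0.52 with no overlap (exact permutation test, two-sided, p = 0.0286, adjusted p = 0.0457 over 8 ratio comparisons). In Trem2-/- libraries it was -1.86, -1.58 and -1.49 without and -0.97, -1.04, -0.80 and -1.43 with cholesterol, a difference of 0.58 (exact permutation p = 0.0571, adjusted p = 0.0653). The Trem2-/- groups did not overlap, but replicate 4 of the foamy libraries lay close to the non-foamy ones. Between genotypes the log2 ratio differed by -1.63 without and by -0.53 with cholesterol (Trem2-/- minus WT, exact permutation p = 0.0286 each, adjusted p = 0.0457), again without overlap. The smallest p that these group sizes allow is 0.0286.

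The ratio of Fdft1 to Ggps1 had differences of the same sign with cholesterol. Its mean log2 value in WT libraries was 1.11 ± 0.04 without and 0.43 ± 0.06 with cholesterol (SD, n = 4 each). In Trem2-/- libraries it was -0.12 ± 0.05 without (SD, n = 3) and 0.31 ± 0.25 with cholesterol (n = 4). The differences with cholesterol were -0.68 in WT (exact permutation p = 0.0286, adjusted p = 0.0457) and 0.43 in Trem2-/- cells (p = 0.0571, adjusted p = 0.0653, exact permutation test). Between genotypes it differed by -1.23 without cholesterol (exact permutation p = 0.0286, adjusted p = 0.0457) and by -0.11 with it (p = 0.6). Trem2-/- foamy replicate 4 was the low value here as well, at -0.05 against 0.37 to 0.50 in the other 3 libraries, and without it the last difference was 0.0098. For Fdft1, 18.3% of the exonic length is overlapped by Ctsb.

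**Figure D4:**
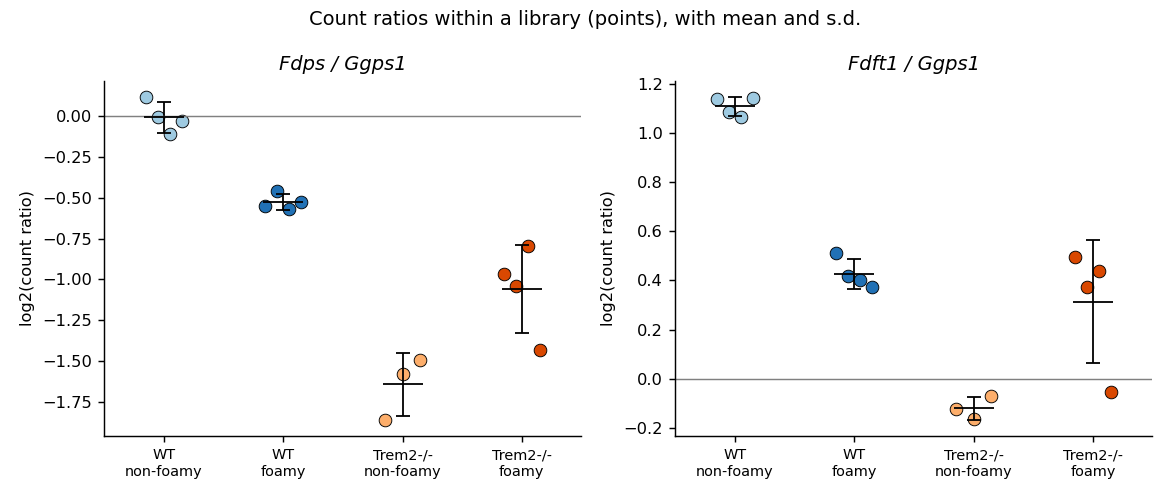
Log2 of the count ratio of Fdps to Ggps1 and of Fdft1 to Ggps1 (vertical axes) in the 15 libraries of the 4 groups, with points for libraries, long bars for means and whiskers for SD. Both ratios are highest in WT non-foamy libraries (means -0.01 and 1.11) and lowest in Trem2-/- non-foamy libraries (means -1.64 and -0.12), and Trem2-/- foamy replicate 4 is the lowest point of its group in both.

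The enzymes after farnesyl diphosphate on the sterol branch had similar numbers of calls. Of 12 such genes 11 were tested. With cholesterol 8 fell in WT cells (1.14% of all tested genes) and 3 rose in Trem2-/- cells (0.105%). Without cholesterol all 11 were lower in Trem2-/- than in WT cells (22.6%), and 8 had a higher response in Trem2-/- than in WT cells (1.99%). The medians were -0.59, 0.38, -1.01 and 1.01 in these comparisons, near those of the 8 genes. In WT cells Fdft1 fell by 0.82 (edgeR adjusted p = 1.56e-08), Cyp51, lanosterol demethylase, by 0.78 (1.56e-08), Msmo1, a methylsterol oxidase, by 0.82 (2.62e-07) and Sqle, squalene epoxidase, by 0.54 (4.39e-05). In Trem2-/- cells Msmo1 (0.67), Cyp51 (0.53) and Fdft1 (0.43) rose, with edgeR adjusted p from 7.76e-05 to 0.00167. With cholesterol 3 of the 11, Cyp51, Lss and Hsd17b7, were lower in Trem2-/- than in WT cells, beside 15.9% of all tested genes.

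Genes that use isoprenoids outside the sterol branch mostly did not pass the test for a response to cholesterol. Of 17 tested, 1 fell in WT cells (1.14% of all tested genes): Pdss1, which builds the side chain of coenzyme Q (-0.47, edgeR adjusted p = 0.00923). In Trem2-/- cells edgeR and DESeq2 called 0 of them, and 1 had an unadjusted p under 0.05. The median log2 fold change of this list with cholesterol was -0.02 for WT and 0.04 for Trem2-/- cells. The farnesyl and geranylgeranyl transferase subunits Fnta (-0.04), Fntb (-0.02) and Pggt1b (0.03) had log2 fold changes near 0 in WT cells. Without cholesterol 6 of the 17 were lower and 2 higher in Trem2-/- than in WT cells, beside 22.6% and 21% of all tested genes, so these counts are not read as particular to the list. The lower ones included Pdss1 (-1.16, adjusted p = 2.16e-08), Zmpste24, a protease that matures prenylated lamin A (-0.55, 4.77e-06), and Coq2, which attaches the coenzyme Q side chain (-0.48, 5.88e-05, all edgeR). With cholesterol 6 of the 17 were lower and 3 higher in Trem2-/- than in WT cells, beside 15.9% and 14.3% of all tested genes. The 3 higher calls are thus near the share over all genes. Pdss1 was the 1 gene of the 17 whose response differed between the genotypes (0.76, edgeR adjusted p = 0.00641).

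No gene for the supply of acetyl-CoA or for the mitochondrial counterparts of the first enzymes passed the test for a response to cholesterol. Of 5 such genes 4 were tested. In both responses and in their difference, edgeR and DESeq2 called 0 of the 4, and 0 had an unadjusted p under 0.05. Acly, ATP citrate lyase, was lower in Trem2-/- than in WT cells without cholesterol (-0.68, edgeR adjusted p = 1.76e-05), while Acss2, acetyl-CoA synthetase, was higher (0.53, 0.00436). Acat1, the mitochondrial thiolase, was at -0.01 in that comparison, beside -1.47 for the cytosolic Acat2. With cholesterol 2 of the 4 were higher and 1 was lower in Trem2-/- than in WT cells, beside 14.3% and 15.9% of all tested genes.

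Of 10 genes for the SREBP2 machinery and receptors it targets, 8 were tested. Idi2, another isomerase gene, had 0 to 2 counts a library and was not tested. In WT cells 1 of the 8 fell with cholesterol (1.14% of all tested genes), Insig1, which retains the SREBP complex in the endoplasmic reticulum (-0.49, edgeR adjusted p = 4.39e-05), and 5 had an unadjusted p under 0.05. In Trem2-/- cells edgeR and DESeq2 called 0 of them, and 1 had an unadjusted p under 0.05. Without cholesterol 5 of the 8 were lower and 2 higher in Trem2-/- than in WT cells (22.6% and 21% of all tested genes), among them Insig1 (-0.83, adjusted p = 9.22e-10), Srebf2, which encodes SREBP2 (-0.72, 2.49e-05), and Insig2 (0.30, 0.00125, all edgeR). With cholesterol 3 of the 8 were lower and 1 was higher in Trem2-/- than in WT cells, beside 15.9% and 14.3% of all tested genes, so the higher call is near the share over all genes. The response differed between the genotypes for Insig1 (0.71, edgeR adjusted p = 3.31e-05).

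The genes closest in pattern to the 8 were mostly sterol genes. Over the 15 libraries, Pearson's r with the mean standardised log2 CPM of the 8 genes was 0.98 for Cyp51, Fdft1, Msmo1, Stard4 and Insig1, 0.97 for Wdr55 and Nsdhl, and 0.96 for Tmem97 and for Gm3571, which shares sequence with Fdps. These values are descriptions, since the libraries share the 4 group means and a score that includes large group differences. Among the members themselves, r with the mean of the other 7 was 0.98 for Hmgcs1, 0.97 for Idi1, 0.94 for Fdps, 0.89 for Acat2, 0.88 for Mvk and Pmvk, 0.83 for Mvd and -0.09 for Ggps1. The neighbours of Mvk and Ggps1 were read as well. Mmab, which starts opposite to Mvk and makes an enzyme of vitamin B12 metabolism, was at 15.1, 16.4, 15.5 and 16.8 CPM in WT non-foamy and at 14.8, 12.4, 12.2 and 11.8 CPM in WT foamy libraries. In Trem2-/- libraries Mmab was at 8.46, 8.73 and 8.01 CPM without and at 11.2, 10.53, 9.30 and 8.91 CPM with cholesterol. In both genotypes the Mmab libraries with and without cholesterol did not overlap. Neither response of Mmab passed the test (-0.32 and 0.25, edgeR adjusted p = 0.0726 and 0.722), its difference of responses did (0.57, adjusted p = 0.0304), and it was lower in Trem2-/- than in WT cells without cholesterol (-0.93, adjusted p = 2.83e-07). Arid4b, whose start lies 256 bases from that of Ggps1, had log2 fold changes of 0.08 and -0.02 with cholesterol in WT and Trem2-/- cells, which did not pass the test, and 0.19 between genotypes without cholesterol (edgeR adjusted p = 0.0339).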

How the data were processed

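Bulk RNA-seq of 15 BV2 libraries was used: 8 from WT cells (4 with cholesterol) and 7 from Trem2-/- cells (4 with cholesterol). The authors deposited 1 table of raw read counts per gene for each library, not normalized. Per their methods, reads from a NovaSeq were processed in CHURP with Trimmomatic, HISAT2, SAMtools and featureCounts on GRCm38 (the labels give mm10). The counts span 23538963 to 41683825 per library, and no pair of replicates was as alike as counting noise alone would make it (chi-square per gene 5.95 to 45.2 over 21 pairs).

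Genes were kept with filterByExpr at a minimum count of 10, which left 14237 genes with 99.97% of the counts. A single quasi-likelihood model (edgeR 4.0.16 under R 4.3.3, glmQLFit then glmQLFTest) with a coefficient for each of the 4 groups took in the 15 libraries, scaled by TMM factors of 0.918 to 1.11. P-values were adjusted by Benjamini-Hochberg over all tested genes, with a threshold of 0.05. CPM is after TMM scaling, and s.e. is that of the coefficient. Alternatives were DESeq2 1.42.0, other scalings and filters, a replicate block, only the libraries compared and leaving out each library. Summing Fdps with similar genes was added after the data were seen. Procedures were tested on simulated data.

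The 8 members and the lists of other genes were chosen with earlier results of these data known. Named genes were the members, Trem2, neighbours, up to 4 examples per list with the smallest p, and the 10 genes most like the members in pattern, of which 1 is not reported here, like some genes of the lists. Other list members given with values were picked as named subunits or counterparts after their values were seen. Overlaps and shared 50-base stretches came from GENCODE M21 annotation, and promoters from RefSeq.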

Additional observations from a re-analysis of the deposited data

Results flagged for a closer look

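The response to cholesterol differed between Trem2-/- and WT cells, by edgeR's quasi-likelihood test of the difference itself, for 6 of the 8 genes. The differences of the log2 fold changes (Trem2-/- minus WT) were 1.70 for Idi1, 1.24 for Fdps, 1.22 for Mvd, 0.94 for Acat2, 0.91 for Hmgcs1 and 0.42 for Pmvk. For Idi1, Fdps and Mvd each response passed the test in its own direction, whereas Acat2, Hmgcs1 and Pmvk passed it in WT cells only, with values of 0.34, 0.33 and 0.07 in Trem2-/- cells. No library of any group of 4 stood far enough from the others in the level of a member to be singled out by Dixon's test.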

How the results depend on the processing

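Leaving out 1 library at a time left 6 genes called in the WT response, 1 to 3 in the Trem2-/- response, 7 for Trem2-/- against WT without cholesterol, 2 to 4 with cholesterol, 4 to 6 for Trem2-/- non-foamy against WT foamy and 5 to 7 in the difference of responses. DESeq2 added Mvk in the WT response and in the difference of responses, and Hmgcs1 in the Trem2-/- response. Over all genes, DESeq2 called 860 genes in the WT response (edgeR 399), 62 in the Trem2-/- response (20) and 983 in the difference (518). With no filter on low counts these were 607 and 61 in the responses, and with only the libraries compared the first was 144.

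The sign of values near 0 depended on the setting. For Ggps1 these were -0.038 with a replicate block, and -0.11 to 0.063 over left-out libraries, in the Trem2-/- response, -0.11 with total counts alone and -0.024 to 0.10 over left-out libraries between genotypes without cholesterol, and -0.10 with total counts alone and -0.078 to 0.10 over left-out libraries for Trem2-/- foamy against WT non-foamy. For Pmvk between genotypes with cholesterol the values ran from -0.038 to 0.017 over left-out libraries.

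Replicate numbers did not pair the samples: over 21 pairs with the same number the correlation of deviations ran from -0.10 to 0.14, and 4 libraries matched their own number best. With a replicate block the same numbers of members were called (6, 3, 7 and 4 in the responses and genotype comparisons, 6 in the difference), with 312, 15 and 294 genes over the whole table in both responses and the difference.

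For the ratios, leaving out a library raised the adjusted p in most fits, also where 3 against 4 libraries still allow a smallest p of 0.0286. Over left-out libraries the adjusted p ran from 0.0571 to 0.0762 with cholesterol in WT cells, for both ratios (exact permutation test). Between genotypes it ran from 0.0889 to 0.114 without cholesterol for both ratios. With cholesterol it ran from 0.0457 to 0.0653 for Fdps to Ggps1. Over left-out libraries the log2 ratio of Fdps to Ggps1 differed by -0.55 to -0.48 with cholesterol in WT cells, by 0.48 to 0.71 in Trem2-/- cells, and between genotypes by -1.71 to -1.53 without and -0.62 to -0.41 with cholesterol. That of Fdft1 to Ggps1 differed by -0.71 to -0.66, 0.37 to 0.56, -1.25 to -1.21 and -0.17 to 0.0098. As paired differences by replicate block, which cannot pass the threshold, the values were -0.52, -1.64 and -0.53 for Fdps and -0.68 and -1.22 for Fdft1 (exact permutation test, adjusted p = 0.286).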
